A study of Homo sapiens with 6 samples.

Results

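The 8 genes described here encode caspases (CASP2, CASP6, CASP8 and CASP9), the death receptor FAS, the caspase-9 scaffold APAF1 and a pair of inhibitor of apoptosis proteins, or IAPs (XIAP and BIRC2). They were chosen by name, with earlier results of these data known. Their Ensembl identifiers were looked up in a table of 61661 gene identifiers. All 8 were found, and all 8 were among the 17686 genes that passed the filter on low counts. The table holds RNA-seq read counts from K562, an established line of chronic myeloid leukemia cells in myeloid blast crisis. Short hairpin RNAs (shRNAs) were used to lower METTL3 or METTL14, which together form the enzyme that writes N6-methyladenosine (m6A) on mRNA, so that the effect on the transcriptome could be followed. There were 2 libraries of control cells (shCTR, labelled WT by genotype), 2 of METTL3 knockdown cells (shMETTL3) and 2 of METTL14 knockdown cells (shMETTL14). By the study's methods, the shCTR cells carried the lentivirus pLent-U6-GFP-puro with a nonsense insert, and the METTL3 shRNA was in the same vector, so both lines also carried GFP and went through puromycin. The METTL14 construct is not described there, METTL3 knockdown rests on 1 shRNA, and the shCTR and shMETTL3 cells were stable lines. Nothing says that the libraries of a group came from separate cultures, so the p-values measure the spread between these libraries, which may be technical.

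Apoptosis runs along an extrinsic and an intrinsic route that end in the same proteases. In the extrinsic route, a ligand clusters a death receptor such as FAS, and the adaptor FADD then brings caspase-8 together for activation. In the intrinsic route, cytochrome c released from mitochondria lets APAF1 assemble the apoptosome, which activates caspase-9, and both routes cleave executioner caspases. IAPs restrain this cascade: XIAP binds and blocks caspases directly, while BIRC2 (cIAP1) is a ubiquitin ligase of tumor necrosis factor receptor complexes. Caspases are made as inactive precursors, so the mRNA levels given here are not a measure of caspase activity.

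The sequences that bear on the design are the METTL3 shRNA and the sites in the 8 mRNAs with the core motif of the METTL3-METTL14 enzyme. The shRNA targets 21 nt of the METTL3 coding sequence at chr14:21501844-21501864 on the minus strand (GRCh38), in exon 4 of the 11 exons of ENST00000298717.8. Its strands are shown to let the off-target check be followed, with bases 2 to 8 of the guide, its seed, in capitals.
METTL3 target strand: gccaaggaacaatccattgtt
METTL3 shRNA guide strand: aACAATGGattgttccttggc
The target strand was found in none of the 8 genes' transcripts, for which the transcript with the longest coding sequence was searched (0 of 8). The 7 bases that pair with the seed, CCATTGT, were also in 0 of the 8 transcripts, and they were in 2468 of 12512 transcripts of genes tested (19.7%).

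GGACT, written in DNA letters, is a common form of the core motif around which the enzyme places m6A. It cannot overlap itself, and densities were taken on the transcript strand of the coding sequences alone. Of 12512 coding sequences, 75.3% held it, with a median of 1 site and 0.980 sites per kb. CASP8 held 5 sites in 1614 nt, or 3.10 per kb, a density above that of 95.2% of coding sequences. CASP2 and APAF1 held 2 sites each, and the other 5 genes held 1 site each, with densities from 0.534 to 1.47 per kb among those 7 genes. Over the whole transcripts the order was another, with 10 sites in CASP9, 6 in CASP8, 6 in XIAP, 5 in CASP2 and 4 in APAF1. BIRC2 held 2 there, and CASP6 and FAS held 1 each. These transcripts run from 1548 nt (CASP6) to 8591 nt (XIAP), and no background was taken for them. The sites of the 4 genes with a call in any comparison are given as 25-nt windows of the transcript (GENCODE release 29), with the motif in capitals.
FAS, exon 3 of 9, plus strand, motif at chr10:89007716-89007720: ggaaagctagGGACTgcacagtcaa
CASP8, exon 1 of 9, plus strand, motif at chr2:201258342-201258346: gcaggttaggGGACTcggagactgc
CASP8, exon 2 of 9, motif at chr2:201266489-201266493: ttaaaaagatGGACTtcagcagaaa
CASP8, exon 2 of 9, motif at chr2:201266567-201266571: tcctgagcctGGACTacattccgca
CASP8, exon 6 of 9, motif at chr2:201274920-201274924: tgacaatctcGGACTctccaagaga
CASP8, exon 8 of 9, motif at chr2:201284934-201284938: acagtaacatGGACTgcttcatctg
CASP9, exon 5 of 8, minus strand, motif at chr1:15506025-15506029: acggtgctctGGACTgctgcgtggt
XIAP, exon 2 of 7, plus strand, motif at chrX:123886224-123886228: agcaagtgctGGACTctactacaca
A match describes letters only. Methylation was not measured in these libraries, and the places of sites outside the coding sequences are not given.

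The libraries held between 19292574 and 20115304 counts, and levels are given as CPM (reads relative to the library total, scaled by edgeR's TMM factors). Groups were compared with edgeR's quasi-likelihood test in one fit of the 6 libraries, with Benjamini-Hochberg adjustment over the 17686 genes (edgeR adjusted p) and a threshold of 0.05. The targeted genes followed the labels. METTL3 had 1788 and 1728 reads in shCTR, 1031 and 938 in shMETTL3, and 1731 and 1498 in shMETTL14 libraries. METTL14 had 656 and 655 reads in shCTR, 752 and 710 in shMETTL3, and 375 and 404 in shMETTL14 libraries. Each mRNA was lower in its own knockdown, METTL3 by a log2 fold change of -0.87 and METTL14 by -0.76 (edgeR adjusted p = 3.44e-07 and 1.40e-05). All 10 K562 and erythroid markers passed the filter on low counts. Their summed levels were 1970 to 1982 CPM in shCTR, 1952 to 2002 in shMETTL3 and 1918 to 1948 in shMETTL14 libraries. In shCTR the largest means were those of TFRC (843 CPM) and ABL1 (318). The globins stood at 0.793 (HBG1), 5.68 (HBZ) and 6.76 CPM (HBG2), below PTPRC (133) and EPCAM (54.6), which are listed as markers of other cell types. Of 10 markers of other cell types, CD3E, MS4A1, CD14, MPO and PECAM1 had at most 4 reads in any library. The summed level of those 10 was 184 to 203 CPM in shCTR, 163 to 176 in shMETTL3 and 183 to 185 in shMETTL14 libraries, nearly all from PTPRC and EPCAM. Single markers changed, with 2 K562 and erythroid markers higher and 1 lower and 1 other marker higher and 1 lower in shMETTL3 cells, and 1 higher and 1 lower in all in shMETTL14 cells, and their part in the values given here was not tested. In bulk RNA, fewer cells of a type and less RNA per cell cannot be told apart.

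FAS rose in METTL3 knockdown cells, CASP8 rose in METTL14 knockdown cells, and the knockdowns differed from each other in FAS, XIAP and CASP9. The other changes among the 8 genes did not pass the threshold, and CASP2, CASP6 and BIRC2 stayed within 0.15 of zero on the log2 scale in all 3 comparisons. Against shCTR, 1 of 8 genes was called in shMETTL3 cells, where 16.5% of all genes tested were called (8.73% higher and 7.73% lower). In shMETTL14 cells, 1 of 8 was called, beside 6.69% of all genes (3.43% higher and 3.26% lower). Between the knockdowns, 3 of 8 were called, FAS and XIAP higher and CASP9 lower in shMETTL3 cells, beside 12.1% of all genes (6.65% higher and 5.49% lower). With only 8 genes, 1 call decides whether the first or second share lies above or below its background. In the third comparison DESeq2 called 1 of the 8 higher and 0 lower. These counts are therefore not read as a result about the 8 genes. Groups that did not overlap were found for 4, 4 and 5 of the 8 genes in the 3 comparisons, beside 56.0%, 48.9% and 56.7% of all genes. The median log2 fold change of the 8 genes was 0.02 in shMETTL3, 0.04 in shMETTL14 and -0.09 between the knockdowns, beside medians of all genes of 0.00299, -0.000140 and -0.00166.

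The balance of directions over all genes moved with the scaling. For shMETTL3 against shCTR, TMM gave 1544 genes higher and 1368 lower, and library size alone gave 2158 and 858. For shMETTL14 against shCTR the counts were 607 and 577 with TMM and 743 and 443 with library size alone, and between the knockdowns 1177 and 971 with TMM and 1399 and 754 with library size alone. No change of the 8 genes that passed the threshold turned its direction under any scaling.

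**Figure D1:**
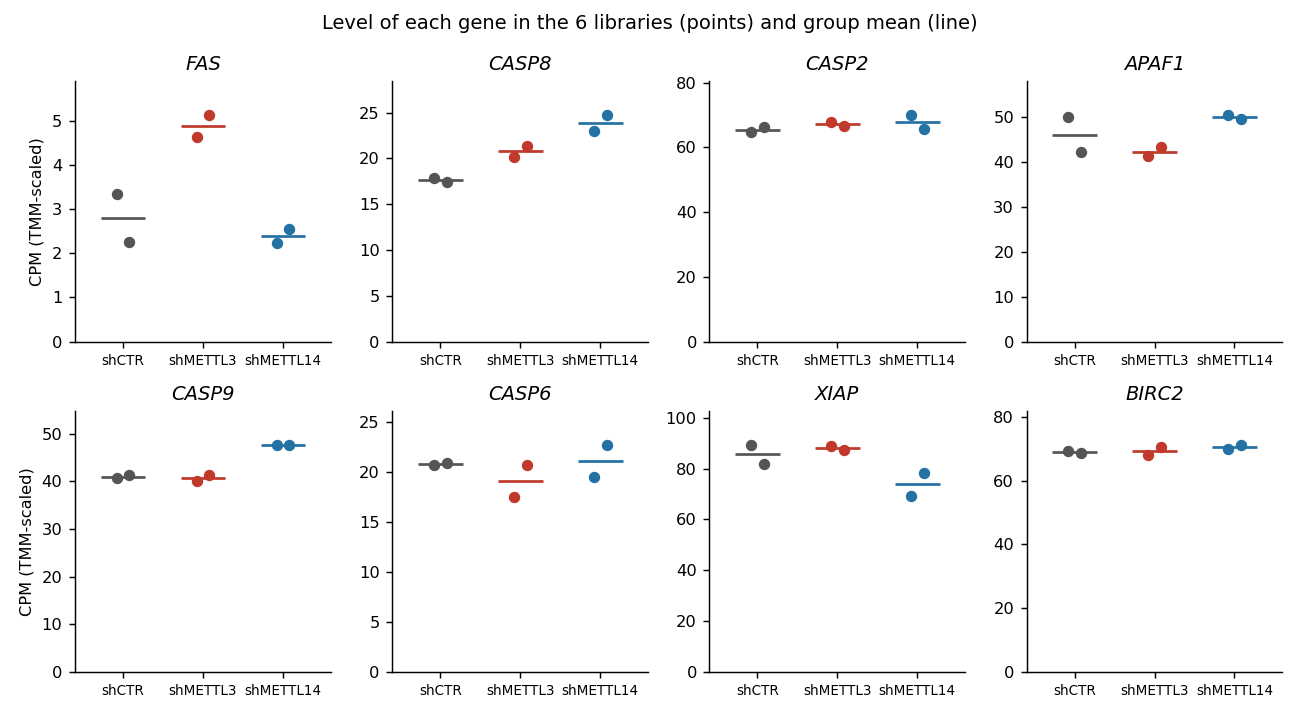
Level of each of the 8 genes in CPM scaled by TMM (vertical axes, each from 0) in the 2 shCTR, 2 shMETTL3 and 2 shMETTL14 libraries (points), with the group mean as a line. FAS sits at 4.63 and 5.13 CPM in shMETTL3 and at 3.34 or less elsewhere, CASP8 steps up from shCTR over shMETTL3 to shMETTL14, and BIRC2 lies between 68.2 and 71.2 CPM throughout.

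FAS (ENSG00000026103, GRCh38 chr10:88990582-89015785, plus strand) encodes the receptor at the head of the extrinsic route. It had 66 and 43 reads in shCTR, 91 and 103 in shMETTL3, and 44 and 50 in shMETTL14 libraries. Both shMETTL3 libraries lay above all 4 others, while the shCTR and shMETTL14 groups overlapped. Its level was 2.79 ± 0.773 CPM (SD, n = 2) in shCTR, 4.88 ± 0.354 (SD, n = 2) in shMETTL3 and 2.39 ± 0.220 (SD, n = 2) in shMETTL14 cells. In shMETTL3 cells it was 74.4% above shCTR, a log2 fold change of 0.80 (SE 0.217, 95% interval 0.35 to 1.26, edgeR adjusted p = 0.0152). In shMETTL14 cells the log2 fold change was -0.22 (95% interval -0.73 to 0.28, edgeR adjusted p = 0.654). The knockdowns differed directly, with FAS 2.04 times as high in shMETTL3 as in shMETTL14 cells (log2 fold change 1.03, SE 0.222, edgeR adjusted p = 0.00377). FAS was the least read of the 8 genes, and the shCTR libraries spread by 23 reads between them. The call against shCTR was lost with DESeq2 (adjusted p = 0.119), without shCTR replicate 2 (log2 fold change 0.54, edgeR adjusted p = 0.120) and without shMETTL3 replicate 2 (0.73, 0.124), and that between the knockdowns without shMETTL14 replicate 1 (0.93, 0.0667).

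ACTA2, smooth muscle actin, lies on the strand opposite FAS and shares 380 nt (8.94%) of its exons. It had 8 and 18 reads in shCTR, 28 and 26 in shMETTL3, and 8 and 8 in shMETTL14 libraries. Whether the counting used strand is not given in the sources used here, so reads from the shared stretch cannot be told apart, and their part in the FAS values was not tested. FASLG, the ligand of FAS, was at or under the floor of 3 reads in every library.

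Over the 6 libraries, the genes whose log2 CPM followed that of FAS most closely among 12768 with a mean of at least 50 counts were PTPDC1 (Pearson r 0.999), CXCL8 (0.998) and SH3BGRL2 (0.998). These points share libraries, and 6 points over so many genes always leave some close matches, so the values are a description. CXCL8, the chemokine interleukin-8, stood at 43.2 and 33.3 CPM in shCTR, 54.5 and 59.7 in shMETTL3, and 31.7 and 35.2 in shMETTL14 libraries. Its log2 fold change in shMETTL3 cells was 0.58, smaller than that of FAS.

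CASP8 (ENSG00000064012, chr2:201233443-201287711, plus strand) encodes the initiator caspase recruited by FAS. It had 352 and 333 reads in shCTR, 396 and 429 in shMETTL3, and 452 and 485 in shMETTL14 libraries. None of the groups overlapped: every shMETTL14 library was above every shMETTL3 library, and these were above both shCTR libraries. Its level was 17.6 ± 0.296 CPM (SD, n = 2) in shCTR, 20.8 ± 0.863 (SD, n = 2) in shMETTL3 and 23.9 ± 1.23 (SD, n = 2) in shMETTL14 cells. The rise in shMETTL14 cells was 35.6%, a log2 fold change of 0.44 (SE 0.0970, 95% interval 0.24 to 0.64, edgeR adjusted p = 0.00832). The shMETTL3 value was 0.24 on the log2 scale (95% interval 0.03 to 0.44) and did not pass the threshold after adjustment (edgeR adjusted p = 0.105). The direct difference between the knockdowns was -0.20 (95% interval -0.40 to -0.00187, edgeR adjusted p = 0.195), so a larger change in one knockdown than in the other was not shown. The call in shMETTL14 cells also passed with DESeq2 (adjusted p = 0.0392) and was lost without shMETTL14 replicate 1 (edgeR adjusted p = 0.0572) or replicate 2 (0.134). The shMETTL3 value passed with library size alone as scaling (0.29, edgeR adjusted p = 0.0456) and with trends in GC content and length removed (0.30, 0.0251).

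CASP2 (ENSG00000106144, chr7:143288215-143307696, plus strand) encodes the initiator caspase activated on the PIDDosome, a complex with PIDD1 and CRADD. It had 1282 and 1268 reads in shCTR, 1331 and 1339 in shMETTL3, and 1376 and 1289 in shMETTL14 libraries. Its 6 levels ran from 64.9 to 70.0 CPM. The log2 fold changes were 0.04 in shMETTL3 (95% interval -0.10 to 0.18, edgeR adjusted p = 0.763) and 0.05 in shMETTL14 cells (-0.09 to 0.19, 0.731), and the upper ends of these intervals are 1.13 and 1.14 times the shCTR level.

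**Figure D2:**
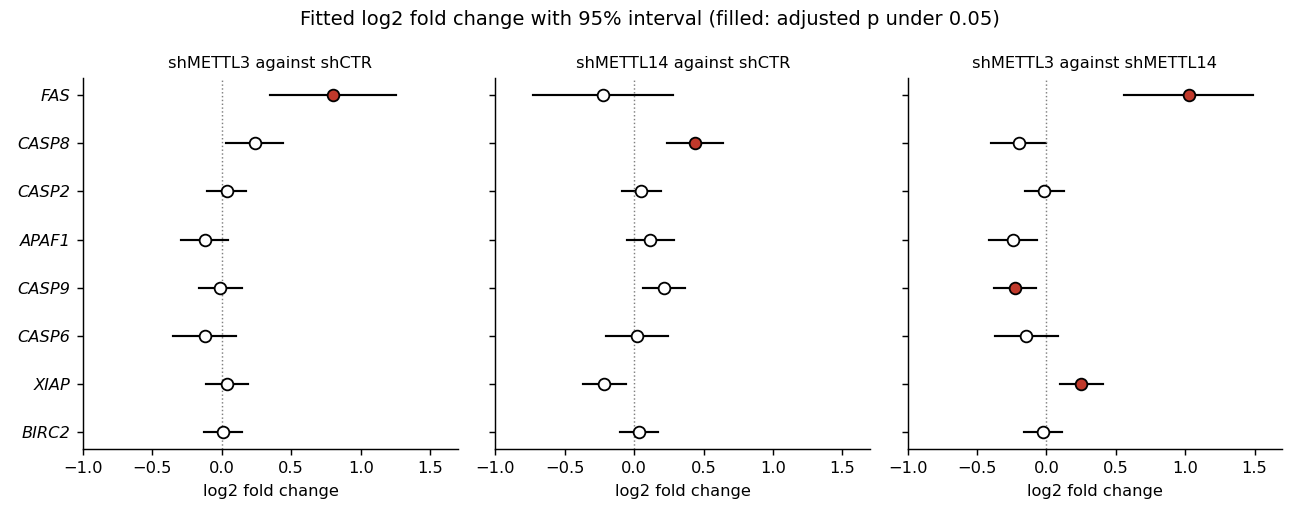
Fitted log2 fold changes of the 8 genes (horizontal axes) with 95% intervals (bars) in the 3 comparisons, shMETTL3 against shCTR, shMETTL14 against shCTR and shMETTL3 against shMETTL14. Filled points passed an adjusted p of 0.05 and are FAS in the first, CASP8 in the second, and FAS, XIAP and CASP9 in the third comparison.

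APAF1 and CASP9, the partners of the apoptosome, both lay lower in shMETTL3 than in shMETTL14 cells. APAF1 (ENSG00000120868, chr12:98645141-98735433, plus strand) had 987 and 807 reads in shCTR, 809 and 869 in shMETTL3, and 990 and 970 in shMETTL14 libraries. The shCTR libraries spanned nearly the whole range of the other groups, so both comparisons with shCTR overlapped. The log2 fold changes were -0.12 in shMETTL3 (95% interval -0.30 to 0.05, edgeR adjusted p = 0.328) and 0.12 in shMETTL14 cells (-0.05 to 0.29, 0.455). Between the knockdowns the groups did not overlap, with 41.2 and 43.3 CPM in shMETTL3 and 50.4 and 49.5 CPM in shMETTL14 libraries, and the log2 fold change was -0.24 (SE 0.0819, edgeR adjusted p = 0.0614). That value passed when the 4 knockdown libraries were fitted without shCTR (edgeR adjusted p = 0.0138), without shCTR replicate 1 (0.0121) or replicate 2 (0.0114), and with trends in GC content and length removed (0.0184), and the shMETTL3 value against shCTR passed without shCTR replicate 2 (-0.24, edgeR adjusted p = 0.0293).

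CASP9 (ENSG00000132906, chr1:15490832-15526534, minus strand), the initiator that APAF1 activates, had 803 and 792 reads in shCTR, 786 and 829 in shMETTL3, and 935 and 933 in shMETTL14 libraries. Both shMETTL14 libraries lay above the 4 others, and shCTR and shMETTL3 overlapped. Its level was 41.0 ± 0.519 CPM (SD, n = 2) in shCTR, 40.7 ± 0.921 (SD, n = 2) in shMETTL3 and 47.6 ± 0.00547 (SD, n = 2) in shMETTL14 cells. The log2 fold change of shMETTL14 against shCTR was 0.21 (95% interval 0.06 to 0.37, edgeR adjusted p = 0.0847), and that of shMETTL3 was -0.01 (-0.17 to 0.14, 0.937). The knockdowns differed by -0.23 (SE 0.0724, edgeR adjusted p = 0.0463). This call is close to the threshold: it was lost with DESeq2 (adjusted p = 0.176), with library size alone, without a filter on low counts and without any 1 of the 4 knockdown libraries (edgeR adjusted p from 0.185 to 0.277). The shMETTL14 value against shCTR passed with trends in GC content and length removed (0.20, edgeR adjusted p = 0.0499).

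CASP6 (ENSG00000138794, chr4:109688622-109703583, minus strand), an executioner caspase that cleaves nuclear lamins, had 408 and 400 reads in shCTR, 343 and 414 in shMETTL3, and 383 and 444 in shMETTL14 libraries. Its shCTR libraries were close to each other, while those of each knockdown spread by more than 3 CPM. The log2 fold changes were -0.12 in shMETTL3 (95% interval -0.35 to 0.10, edgeR adjusted p = 0.478) and 0.02 in shMETTL14 cells (-0.20 to 0.24, 0.941). MCUB, on the opposite strand, shares 105 nt (5.40%) of the CASP6 exons and had 233 and 213 reads in shCTR, 365 and 312 in shMETTL3, and 174 and 175 in shMETTL14 libraries. Its part in the CASP6 values was not tested.

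XIAP (ENSG00000101966, chrX:123859724-123913979, plus strand), the IAP that blocks caspases by binding them, had 1764 and 1571 reads in shCTR, 1744 and 1750 in shMETTL3, and 1360 and 1539 in shMETTL14 libraries. Both shMETTL14 libraries lay below the 4 others. Its level was 85.7 ± 5.10 CPM (SD, n = 2) in shCTR, 88.0 ± 1.11 (SD, n = 2) in shMETTL3 and 73.9 ± 6.57 (SD, n = 2) in shMETTL14 cells. The log2 fold change of shMETTL14 against shCTR was -0.21 (95% interval -0.37 to -0.06, edgeR adjusted p = 0.0880), and that of shMETTL3 was 0.04 (-0.11 to 0.19, 0.769). XIAP was 19.1% higher in shMETTL3 than in shMETTL14 cells (log2 fold change 0.25, SE 0.0728, edgeR adjusted p = 0.0264). This call was lost with DESeq2 (adjusted p = 0.0581), without a filter on low counts (edgeR adjusted p = 0.0570) and without shMETTL3 replicate 1 (0.164), shMETTL3 replicate 2 (0.123) or shMETTL14 replicate 1, which also gave the smallest value (0.16, 0.388). The value against shCTR passed without shCTR replicate 2 (-0.27, edgeR adjusted p = 0.0258) and with trends in GC content and length removed (-0.19, 0.0485).

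BIRC2 (ENSG00000110330, chr11:102347211-102378670, plus strand) had 1373 and 1313 reads in shCTR, 1339 and 1416 in shMETTL3, and 1377 and 1395 in shMETTL14 libraries. It was the steadiest of the 8 genes. Its log2 fold change was 0.01 in shMETTL3 (95% interval -0.13 to 0.14, edgeR adjusted p = 0.963) and 0.03 in shMETTL14 cells (-0.10 to 0.17, 0.831).

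**Figure D3:**
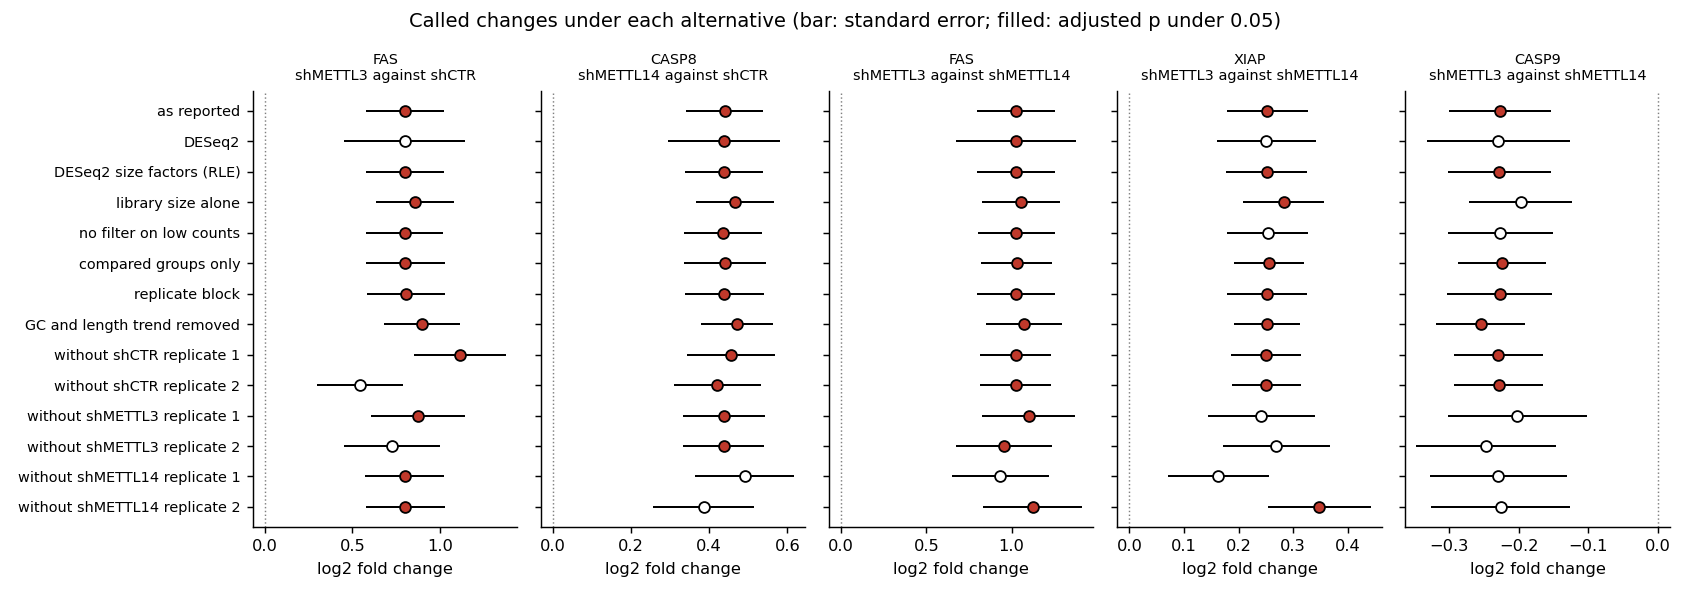
The 5 called changes as reported and under each other setting (rows), as log2 fold change (horizontal axes) with standard errors (bars), filled where the adjusted p was under 0.05. All values keep their direction, CASP9 passes in 6 of 13 other settings, and CASP8 fails only without 1 of the shMETTL14 libraries.

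Levels were compared between the genes as CPM per kb of each gene's longest transcript. BIRC2 was highest in every library, at 16.7 to 17.5 CPM per kb, and FAS lowest, at 0.874 to 2.00. Between them the order by median was CASP6 (13.3), CASP2 (11.5), XIAP (9.85), CASP9 (9.26), CASP8 (7.09) and APAF1 (6.58). CASP6 and CASP2 changed places within the shMETTL3 group, so these neighbours do not differ beyond their spread. The other changes of place followed the groups. XIAP was above CASP9 in both shCTR and both shMETTL3 libraries and below it in both shMETTL14 libraries (8.06 and 9.14 against 10.7 and 10.7 CPM per kb). APAF1 was above CASP8 in both shCTR libraries and below it in all 4 knockdown libraries. The order depends on the length taken, and only the place of FAS held for transcript, merged exons and coding sequence alike.

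The rest of the death pathway was read from 58 further genes in 7 lists by role, of which 47 passed the filter on low counts. In shMETTL3 cells 4 were called higher and 4 lower, in shMETTL14 cells 3 higher and 3 lower, and between the knockdowns 3 higher and 3 lower. The remaining 39, 41 and 41 of the 47 did not pass the threshold. BIRC7 is counted among those higher in shMETTL14 cells and among those lower between the knockdowns. It passed the filter on low counts only through the shMETTL14 libraries, so its part in both counts supports nothing. The 47 genes had median log2 fold changes of -0.01, -0.02 and -0.02. These counts stand beside the background shares given above, and the genes they hold come from every list but that of IAP antagonists and partners, where none of the 5 genes tested had an unadjusted edgeR p under 0.05 in any comparison.

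Among other caspases, the inflammatory caspase CASP1 rose in shMETTL3 cells from 17 and 12 to 36 and 34 reads (log2 fold change 1.24, edgeR adjusted p = 0.0161). CASP4, of the same inflammatory group, was called only between the knockdowns, at 276 and 234 reads in shMETTL3 and 164 and 157 in shMETTL14 libraries (0.65, edgeR adjusted p = 0.00266). CASP10, a relative of CASP8 that binds FADD, stood lower in the METTL3 than in the METTL14 knockdown (-0.31, edgeR adjusted p = 0.0123).

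Around FAS and CASP8, CFLAR, which encodes the caspase-8 inhibitor c-FLIP, rose in both knockdowns. It had 2864 and 2979 reads in shCTR, 3533 and 3575 in shMETTL3, and 3535 and 3427 in shMETTL14 libraries, with log2 fold changes of 0.25 (SE 0.0618, edgeR adjusted p = 0.00815) and 0.24 (SE 0.0618, edgeR adjusted p = 0.0233). The 2 comparisons share the shCTR libraries. Of 6 death ligands and receptors tested, TNFRSF21 (death receptor 6) was called. It had 140 and 172 reads in shCTR, 190 and 210 in shMETTL3, and 89 and 86 in shMETTL14 libraries. It fell in shMETTL14 cells by 0.85 on the log2 scale (edgeR adjusted p = 0.00290). TNFRSF21 was also higher in shMETTL3 than in shMETTL14 cells by 1.17 (edgeR adjusted p = 3.90e-05). Its value in shMETTL3 against shCTR was 0.33 and did not pass (edgeR adjusted p = 0.140). In that comparison none of the 6 was called and 4 had positive log2 fold changes, while TNFRSF10A (-0.16) and TNFRSF10B (-0.11) lay below shCTR. Among the 4 is TNFRSF25, with 5 and 3 reads in shCTR and 10 and 14 in shMETTL3 libraries. TNFRSF25 passed the filter on low counts only through the shMETTL3 libraries, so its positive sign supports nothing. DAXX, a FAS-binding protein, was among the genes called higher in shMETTL3 cells.

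Among the partners of APAF1 and CASP2, CRADD, the adaptor that links caspase-2 to PIDD1, had 986 and 1026 reads in shCTR, 1119 and 1083 in shMETTL3, and 1396 and 1380 in shMETTL14 libraries. It rose in shMETTL14 cells (log2 fold change 0.45, edgeR adjusted p = 3.23e-04) and stood lower in the METTL3 knockdown than there (-0.35, edgeR adjusted p = 0.00176). PTMA, prothymosin alpha, an inhibitor of apoptosome assembly, fell in both knockdowns (-0.21 and -0.19, edgeR adjusted p = 0.0107 and 0.0311), in comparisons with the same shCTR libraries. HSPA8, a chaperone, fell in shMETTL3 cells (-0.20, edgeR adjusted p = 0.0146). With library size alone as scaling, 1 of the 47 further genes was called lower in shMETTL3 and 1 in shMETTL14 cells. PTMA and HSPA8 were therefore not both called lower in shMETTL3 cells under that scaling. PTMA and HSPA8 have many processed pseudogenes, and NAIP has near-identical copies. Reads that match several copies could therefore be missing from their counts, which was not tested.

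Of the other IAP family genes, NAIP was called lower in shMETTL3 cells, and BIRC7 (livin) was called in shMETTL14 cells. BIRC7 had 6 and 4 reads in shCTR, 1 and 2 in shMETTL3, and 19 and 18 in shMETTL14 libraries. It passed the filter on low counts only through the shMETTL14 libraries, where it is high, so its calls in shMETTL14 against shCTR (log2 fold change 1.85, edgeR adjusted p = 0.0329) and between the knockdowns (edgeR adjusted p = 9.43e-04) follow from that selection and support nothing. No fold is given between the knockdowns, because both shMETTL3 libraries were under the floor of 3 reads. Of 11 execution substrates tested, PAK2, a kinase activated by caspase cleavage, fell in both knockdowns, from 3599 and 3248 reads in shCTR to 2959 and 2991 in shMETTL3 and 2819 and 3070 in shMETTL14 libraries (-0.23 in each, edgeR adjusted p = 0.0188 and 0.0377). Both comparisons use the same shCTR libraries. With library size alone as scaling, PAK2 and PTMA were not both called lower in either knockdown, because 1 further gene was called lower in each.

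**Figure D4:**
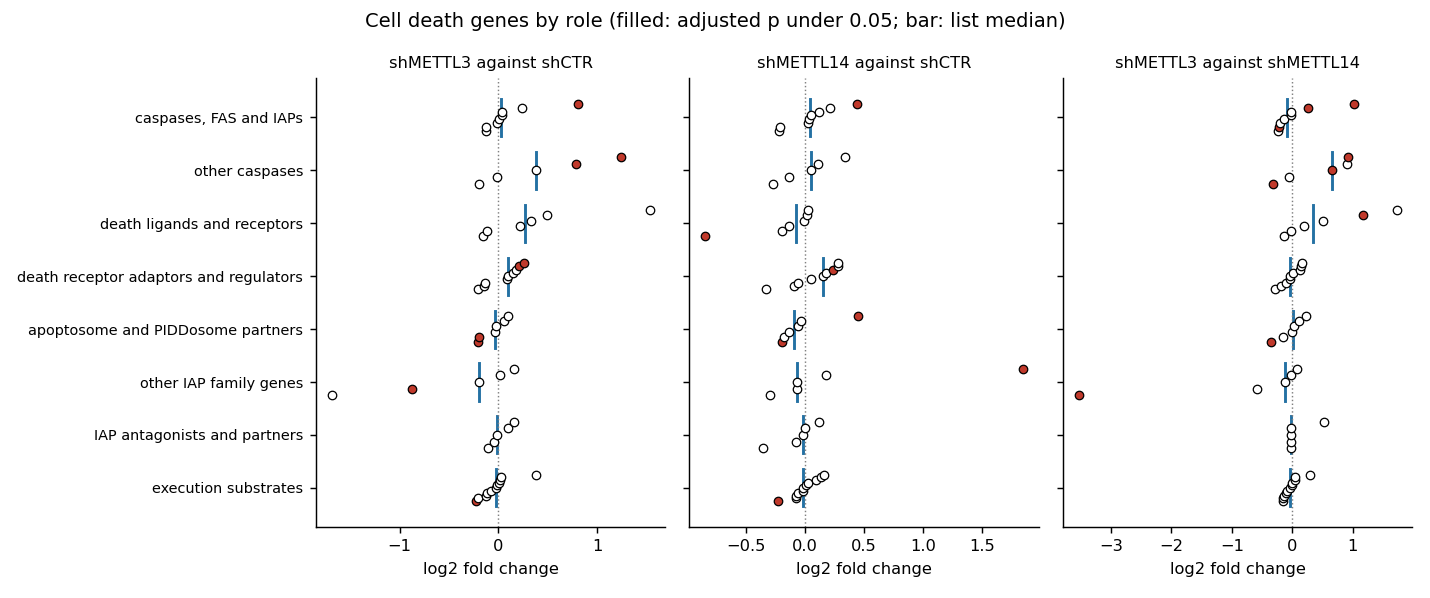
Log2 fold changes (horizontal axes, whose scales differ) of the 8 genes and of the 7 other lists of death pathway genes (rows) in the 3 comparisons, with each list's median as a bar and filled points at an adjusted p under 0.05. The medians of most lists lie near 0, and the single points far from it include CASP1 in shMETTL3 and TNFRSF21 in shMETTL14 cells. BIRC7 and TNFRSF25 (1.53 in shMETTL3 against shCTR) also lie far from 0. BIRC7 passed the filter on low counts only through shMETTL14, and TNFRSF25 only through shMETTL3.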

How the data were processed

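The series holds RNA-seq of K562 cells, 6 libraries in 3 groups of 2 (shCTR, shMETTL3, shMETTL14). Libraries were made from poly(A) RNA, and the authors deposited 1 table of counts: whole reads per gene, not normalized, of which all 6 columns were used. The submitters' processing notes name HTSeq 0.6.1 and hg38. The aligner, the annotation and the strand setting are not given in the sources used here. The table held 60675 Ensembl identifiers and 986 identifiers of the authors without a name (0.635% to 0.703% of reads, kept in the totals). A gene name table gave 56558 symbols and GENCODE release 29 another 497, and coordinates are of that release on GRCh38.

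The test was the quasi-likelihood test of edgeR 4.0.16 (R 4.3.3) after filterByExpr (minimum count 10) and TMM scaling, for 3 contrasts in one fit without a replicate block. P-values were adjusted by Benjamini-Hochberg over all genes tested and called below 0.05. Intervals are 95%, for single genes, without adjustment, and a floor of 3 reads covers counting error only. Steps were tested on simulated data. Alternatives were DESeq2 1.42.0, its size factors, library size alone, no filter, the compared groups only, the replicate block and each library left out. Removal of GC and length trends (mgcv 1.9.3) was chosen after the data had been seen.

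The 8 genes and the lists were chosen with earlier results of these data known. Named besides were the targeted genes, list genes past the threshold in any comparison (with values for the 6 of smallest adjusted p in each), and the 3 genes most like the one of the 8 with the smallest adjusted p. Some genes that meet this rule are not reported here. Libraries of a group differed beyond sampling noise, so none was merged. The mean chi-square per gene was largest in shCTR, at 5.34, beside 3.05 in shMETTL3 and 2.55 in shMETTL14.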

Additional observations from a re-analysis of the deposited data

Results flagged for a closer look

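Of the 8 genes, 3 differed between shMETTL3 and shMETTL14 libraries when these were compared directly in the same fit. In that comparison 12.1% of all genes tested were called and 56.7% had groups that did not overlap. FAS differed by a log2 fold change of 1.03 (95% interval 0.56 to 1.49), higher in shMETTL3 cells in 2 of 2 libraries. XIAP differed by 0.25 (0.10 to 0.40), also higher in 2 of 2 shMETTL3 libraries. CASP9 differed by -0.23 (-0.38 to -0.08), lower in 2 of 2 shMETTL3 libraries. The XIAP and CASP9 calls were lost with DESeq2 and without a filter on low counts. Neither gene was called against shCTR, in shMETTL3 cells (edgeR adjusted p = 0.769 and 0.937) or in shMETTL14 cells (0.0880 and 0.0847). Groups of 2 libraries are too small to look for a single library that stands apart.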

How the results depend on the processing

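Of 312 recomputed changes of the 8 genes, 268 kept their direction and side of the threshold, 18 lost a call, 11 gained one and 15 changed sign, all of them of values past the threshold in neither fit. DESeq2 called 1752, 713 and 1243 genes (shMETTL3 against shCTR, shMETTL14 against shCTR, and shMETTL3 against shMETTL14) in place of 2912, 1184 and 2148, and 0 of the 8 genes in the first (FAS 0.80, unadjusted p = 0.0190) with 1 further death pathway gene higher; between the knockdowns it called 1 of the 8 higher and 0 lower (CASP9 -0.23, XIAP 0.25). With library size alone, the first comparison had 2 of the 8 higher (CASP8 0.29) and 1 pathway gene lower, the second 1 pathway gene lower, and the third 0 of the 8 lower (CASP9 -0.20); CASP9 changed sign in shMETTL3 cells (0.0437), and CASP2 (0.0158) and BIRC2 (0.00399) did so between the knockdowns. Without a filter, 766 genes were called in shMETTL14 cells, and between the knockdowns 1 of the 8 was higher and 0 lower (CASP9 -0.23, XIAP 0.25). With the compared groups only, 1 pathway gene was lower in shMETTL14 cells, and between the knockdowns 2 of the 8 (APAF1 -0.24) and 5 pathway genes were lower. With GC and length trends removed, 2 of the 8 were higher (CASP8 0.30) and 9 pathway genes lower in shMETTL3 cells; 2 were higher (CASP9 0.20) and 1 lower (XIAP -0.19) in shMETTL14 cells; and 2 of the 8 (APAF1 -0.24) and 7 pathway genes were lower between the knockdowns, where BIRC2 changed sign (0.0106). The cause of these shifts was not tested.

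With each library left out in turn, 1102 to 3569, 341 to 1913 and 942 to 2953 genes were called. The 8 genes had 0 to 1 higher and 0 to 1 lower in each comparison with shCTR, and 0 to 2 and 0 to 2 between the knockdowns; pathway genes ran from 0 to 5 and 0 to 5, 1 to 4 and 1 to 4, and 2 to 4 and 1 to 5. In shMETTL3 cells FAS ran from 0.54 to 1.12 and APAF1 from -0.24 to 0.00063, in shMETTL14 cells CASP8 from 0.39 to 0.49 and XIAP from -0.31 to -0.13, and between the knockdowns FAS from 0.93 to 1.12, XIAP from 0.16 to 0.35, CASP9 from -0.25 to -0.20 and APAF1 from -0.27 to -0.20. Uncalled values whose sign depends on a library were XIAP (-0.0237 to 0.0980), CASP9 (-0.0329 to 0.0115) and BIRC2 (-0.0160 to 0.0322) in shMETTL3 cells, FAS (-0.48 to 0.0919), CASP6 (-0.0921 to 0.12) and APAF1 (-0.00171 to 0.24) in shMETTL14 cells, and CASP2 (-0.0574 to 0.0304) and BIRC2 (-0.0471 to 0.00115) between the knockdowns. Where a group is left with 1 library, that library is assumed to vary like the other groups. Over all genes, the deviations of same-numbered libraries from their group means showed little correlation (r 0.0614, 0.00511 and -0.0200). Such a value over all genes does not settle whether the numbers pair libraries, and the labels do not say. With the replicate block 3264, 1459 and 2478 genes were called, in place of 2912, 1184 and 2148. Between the knockdowns 2 of the 8 were then lower, APAF1 (-0.24, edgeR adjusted p = 0.0481) being added. By merged exons, 4 of the 8 genes kept their place in the order of levels per kb, and by coding sequence 3. FAS, at 43 to 103 reads, is where depth limits precision most.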
